A study of Caenorhabditis elegans with 6 samples.

Results

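The 8 genes described here, of 19973 protein-coding genes in all, are lin-14, lin-28, lin-41, lin-46, hbl-1, daf-12 and lin-66 of the heterochronic pathway of Caenorhabditis elegans, together with puf-9, a Pumilio-family gene tied to that pathway. They were set beside one another because of where peaks of the transcription factor ELT-3 lie near them: a peak summit was counted for a gene when it fell between 5 kb upstream of the gene's first annotated 5′ end and its 3′ end, an interval called the span below. The genes were thus selected on the final peak list, called optimal, and on the list called on pooled reads, with ranks by signal value in the lists of single replicates. Every value from those lists is given as a description and carries no test.

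The data came from chromatin immunoprecipitation followed by sequencing (ChIP-seq) with ELT-3, which binds DNA through a GATA-type zinc finger and acts in the epidermis. All libraries were of 1 group, whole worms of strain OP75 at the third larval stage (L3), of mixed sex. There was no second condition. The strain has the genotype unc-119(ed3) III; wgIs75, in which an integrated transgene supplies ELT-3 carrying GFP and FLAG at its C-terminus, so the tagged protein and not the endogenous one was profiled, and epidermis was not separated from other tissues. The 6 libraries came from 4 biological replicates, numbered 1, 2, 4 and 5, and the 3 technical libraries of replicate 2 were counted once. No source used here says that the replicates were grown separately, so their spread may be technical.

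Heterochronic genes order the stage-specific fates of larval cells, above all in the seam cells of the epidermis. Proteins of the early stages, such as LIN-14, LIN-28, HBL-1 and LIN-41, are taken down stage by stage by microRNAs of the lin-4 and let-7 families, and their loss lets the next programme begin. PUF proteins bind 3′ untranslated regions and repress the messages, and PUF-9 is known to act on the hbl-1 message.

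The sequences around the summits on which the results turn are shown on the plus strand of ce11 (WBcel235). The puf-9 window runs 75 bp to each side of the summit (chrX:5841259-5841409), since its only GATA motif in that window lies just past 50 bp, and the others run 50 bp to each side. They are the optimal summit of lin-14 (chrX:11481651-11481751), both leading summits of daf-12 (chrX:10645396-10645496 and chrX:10640800-10640900) and the only summit of lin-66 (chrIV:13887712-13887812). Capitals mark 6-base words that were searched on both strands. A match to AGATAA or to AGATAG, or else to TGATAA or to TGATAG, counted as a GATA motif. The further words were GAGAGA, which overlaps itself in runs, then ACGCAG, which none of these windows holds, and finally CGTCTC.
puf-9 summit 1: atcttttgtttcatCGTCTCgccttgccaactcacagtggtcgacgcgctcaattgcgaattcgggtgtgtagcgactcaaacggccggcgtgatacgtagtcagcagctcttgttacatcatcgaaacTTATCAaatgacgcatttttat
lin-14 summit 1: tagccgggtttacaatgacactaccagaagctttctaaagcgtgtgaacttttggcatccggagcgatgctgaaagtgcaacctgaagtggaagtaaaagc
daf-12 summit 1: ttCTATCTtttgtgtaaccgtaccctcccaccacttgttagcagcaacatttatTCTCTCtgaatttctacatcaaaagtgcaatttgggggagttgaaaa
daf-12 summit 2: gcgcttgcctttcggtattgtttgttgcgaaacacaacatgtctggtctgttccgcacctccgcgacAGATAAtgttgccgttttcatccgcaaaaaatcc
lin-66 summit 1: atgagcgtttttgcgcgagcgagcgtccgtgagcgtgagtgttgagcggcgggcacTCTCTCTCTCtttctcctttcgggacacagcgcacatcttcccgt

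Of the 8 genes, 2 had an optimal summit in the span, puf-9 and lin-14, and 6 had none, while 7.62% of all protein-coding genes had one. All 8 had at least 1 summit in the pooled list, as did 62.2% of all protein-coding genes. Because these counts chose the genes, nothing is read from them. The optimal list held 1047 peaks, which were the 1047 strongest of the 14525 pooled peaks by signal value, the strength that the authors' peak caller gave each peak. The threshold thus fell between a signal of 39.86 at the last peak inside and 39.83 at rank 1048, the first outside. Among the 8 genes, lin-14 stood just inside it at rank 1034 and signal 40.0. Just outside stood lin-41 at rank 1098 and signal 39.2, and daf-12 at rank 1100 and signal 39.1. The gap between puf-9 and these 3 genes was far wider than the gaps across the threshold, as the plot of summit ranks shows.

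**Figure D1:**
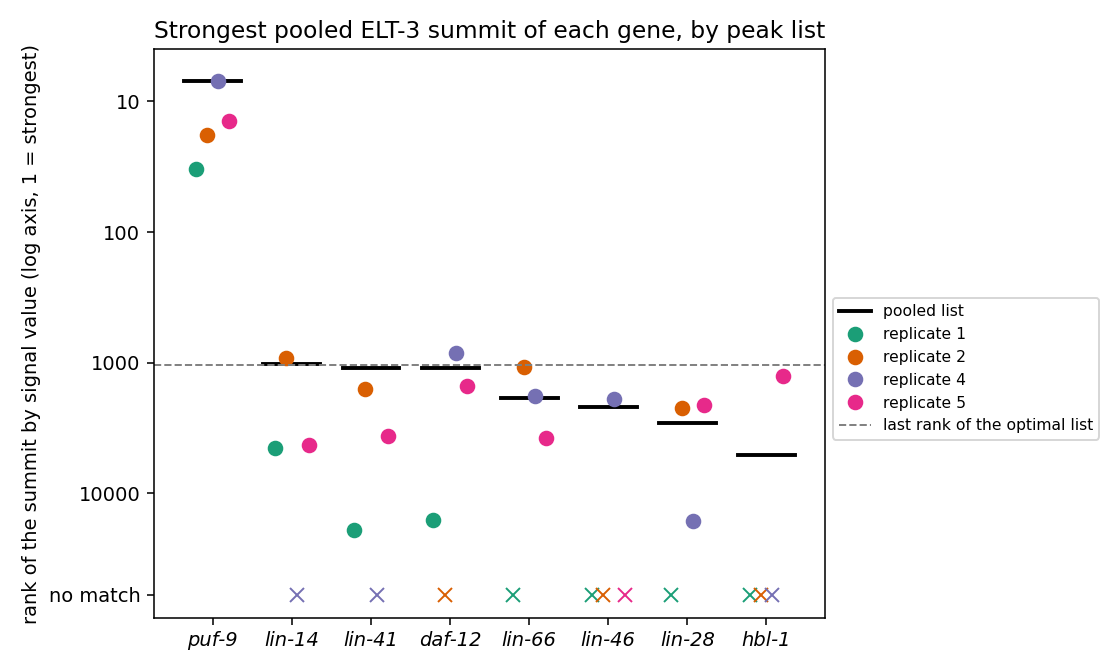
Rank by signal value (log axis, 1 at the top is the strongest peak) of each gene's strongest pooled summit, in the pooled list (black bars) and in the replicate lists (coloured points). Crosses mark replicates with no summit within 100 bp, and the dashed line is rank 1047, the end of the optimal list. Only puf-9 lies far above the line in every list, between ranks 7 and 33.

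puf-9 encodes a Pumilio-family RNA-binding protein. It lies at chrX:5841592-5845987 on the plus strand, and its main summit, at position 5841334, was 258 bp upstream of its 5′ end. The peak had rank 7 and signal 169 in the optimal list, a −log10 q-value of 2.82 and a width of 132 bp, against a median width of 336 bp in that list. Its rank was 33 in replicate 1, 18 in replicate 2, 7 in replicate 4 and 14 in replicate 5, out of 30000 peaks each (mean 18.0 ± 11.0, SD, n = 4; median 16). All 4 replicate peaks were thus near the top of their lists, and their summits lay 34 bp or less from the pooled summit, at -34, -1, 8 and 0 bp. The signal values were 26.6 in replicate 1, 28.6 in replicate 2, 70.6 in replicate 4 and 41.2 in replicate 5, on a scale that differs between lists. In the lists on the older build ce10, the gene's peak was not placed by coordinate, but rank 7 there was also a peak on the X chromosome, with a signal of 168.7.

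Across protein-coding genes ordered by their strongest pooled summit, puf-9 held position 10 of 19973. In the replicate lists, 0.280%, 0.135%, 0.0501% and 0.0601% of genes had as strong or stronger a peak in their span in replicates 1, 2, 4 and 5. Of the 423 optimal summits matched within 100 bp in all 4 replicates, 6 had a lower mean rank than that of puf-9. The puf-9 summit was also 1 of 95 that lay among the 1047 strongest peaks of every replicate. The genes nearest to it in mean rank, over 4 replicates, were pks-1, a polyketide synthase gene, and the pair cdc-48.1 and C06A1.7, which share a summit. pks-1 had ranks 22, 14, 10 and 27 in replicates 1, 2, 4 and 5, a mean of 18.25. The shared summit of cdc-48.1, which encodes an AAA ATPase, had ranks 11, 2, 6 and 44, a mean of 15.75. The likeness is in rank alone.

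The place of the puf-9 summit is shared with other annotations. It lay inside 2 short non-coding RNA genes, W06B11.7 on the minus strand (chrX:5841170-5841350) and W06B11.9 on the plus strand (chrX:5841185-5841361). It was 16 bp downstream of the 5′ end of W06B11.7, against 258 bp upstream for puf-9, whose 5′ end was the nearest of any protein-coding gene. It was also 1556 bp upstream of the gene dct-11, in whose span it counts too. ChIP-seq of this kind does not tell which of these genes a peak belongs to. The window held no GATA motif within 50 bp of the summit, although the 4-base core GATA occurred once. A TGATAA on the minus strand, seen in the sequence as TTATCA, stood 54 to 59 bp to the right, inside the called peak and 13 bp from its edge. A CGTCTC stood 56 to 61 bp to the left, across the left edge of the called peak. Each of the 66 stretches of 36 bases in the 101 bp window occurs once in the genome, so the letters there are unique.

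Set beside the optimal list, the missing motif was common: 39.4% of the 1047 optimal summits had a GATA motif within 50 bp, against 22.5% of equally long flank windows, centred 350 bp left of the summits. Within 75 bp, the window that takes in the TGATAA of puf-9, the shares were 49.0% at summits and 32.1% in the flanks. Of the 20 strongest optimal summits, to which puf-9 belongs, 4 had the motif within 50 bp and 6 within 75 bp. CGTCTC occurred within 75 bp of 19.1% of optimal summits and of 4.58% of flank windows. The flank windows were also poorer in G and C, with a mean of 35.5% against 43.5% at summits. The part of this difference in the shares was not tested. A match is a string of letters and not a shown binding site. The second pooled summit of puf-9 was weak, at rank 12899, 4342 bp upstream.

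Among the regulators that act early, lin-14 encodes a nuclear DNA-binding protein that is the best known target of the lin-4 microRNA. It lies at chrX:11465560-11485871 on the plus strand, and its span of 25.3 kb held 11 pooled summits, the most of the 8 genes. The optimal summit at 11481701 lay in an intron, 16141 bp downstream of the first 5′ end and 1340 bp downstream of an internal one. Its rank was 4512 in replicate 1, 923 in replicate 2 and 4283 in replicate 5, and replicate 4 had no summit within 100 bp. It was thus among the 1047 strongest peaks of replicate 2 only, and its replicate 2 summit was 100 bp away, at the limit of a match. The window held none of the words searched, nor the GATA core.

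The next lin-14 summit stood at rank 1299, 610 bp upstream of the first 5′ end, with ranks 7753, 1522 and 1387 in replicates 2, 4 and 5 and no match in replicate 1. A lin-14 summit that all 4 replicates shared lay in an intron at pooled rank 2506, with ranks 11868, 18054, 8705 and 10209 in replicates 1, 2, 4 and 5. It is weak in every list, yet with that of puf-9 it was 1 of 2 summits over the 8 genes matched in all 4. The strongest peak anywhere in the lin-14 span was at another place in each replicate: 19494, 17550 and 13975 bp downstream of the first 5′ end in replicates 1, 2 and 4, with ranks 730, 207 and 643, and 625 bp upstream in replicate 5, with rank 1387. The high ranks of lin-14 in 3 of 4 replicates therefore belong to different positions.

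**Figure D2:**
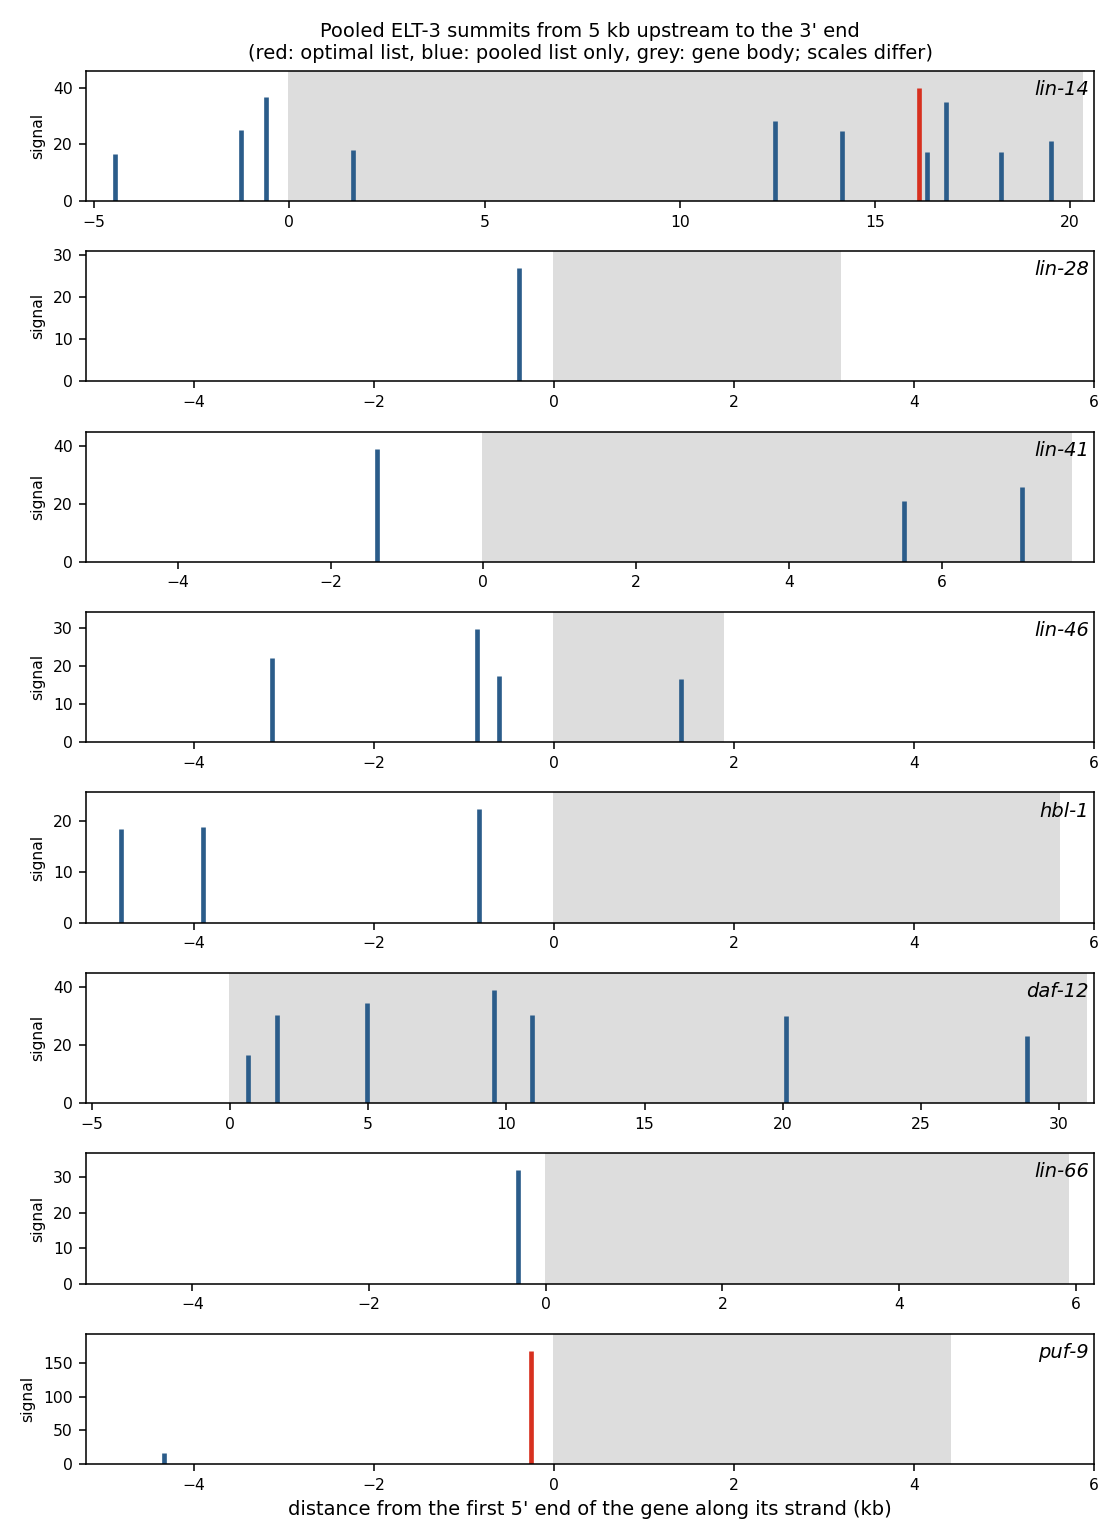
Pooled summits of each gene, as vertical lines whose height is the signal value, by distance in kb from the gene's first 5′ end along its strand. Red lines are in the optimal list, blue lines in the pooled list only, and grey marks the gene body; axes differ between panels. The red line of puf-9 reaches 169, while every other line stays at 40.0 or below.

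lin-28 encodes an RNA-binding protein that keeps let-7 from maturing. It lies at chrI:8407630-8410804 on the minus strand, and its only pooled summit stood at rank 2885 and signal 26.9, 394 bp upstream of the 5′ end. The replicate ranks were 2208, 16452 and 2127 in replicates 2, 4 and 5, with no match in replicate 1. The window held 2 GATA motifs, the nearer centred 6.5 bp from the summit. Of its 66 stretches of 36 bases, 37 occur once in the genome and others up to 10 times. Reads there may be shared with other copies, and the sources used here do not state how the authors placed such reads. The part of the repeats in the value was not tested. The nearest optimal summit, at rank 473, lay 11087 bp outside the span.

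lin-46 encodes a protein similar to gephyrin that acts downstream of lin-28. It lies at chrV:12968855-12970730 on the plus strand, and its strongest pooled summit stood at rank 2206 and signal 29.8, 861 bp upstream. That summit was only 12 bp upstream of the 5′ end of R186.8, a gene on the other strand. It was matched in replicate 4 alone, at rank 1893. A weaker summit 613 bp upstream of lin-46, at pooled rank 10982, had ranks 7100, 3614 and 5147 in replicates 1, 2 and 5. It had no match in replicate 4. None of the 4 pooled summits of lin-46 had a coding 5′ end of lin-46 as its nearest one, and none had a GATA motif within 50 bp. The nearest optimal summit lay 110570 bp away, the longest such distance of the 8 genes.

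lin-66, which is known to lower lin-28 activity, lies at chrIV:13888079-13893986 on the plus strand. Its only pooled summit stood at rank 1866 and signal 31.9, 317 bp upstream of the first 5′ end. It had ranks 1075, 1817 and 3767 in replicates 2, 4 and 5 and no match in replicate 1. The window held no GATA motif but a run of TC repeats with 3 overlapping GAGAGA matches on the minus strand, 6 to 15 bp to the right. GAGAGA was found within 50 bp of 20.8% of optimal summits and of 6.11% of flank windows, which were poorer in G and C. The lin-66 summit is not in the optimal list. Over all 14525 pooled summits the share was 10.8%, against 5.58% of their flank windows. The strongest peak of the whole optimal list, at rank 1 and signal 234, was the nearest to lin-66, 25408 bp outside its span.

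hbl-1 encodes a zinc finger protein related to Hunchback and is a target of the let-7 family. It lies at chrX:5822142-5827755 on the plus strand, with 13.8 kb between the 3′ end of hbl-1 and the 5′ end of puf-9. It had the weakest leading summit of the 8 genes, at rank 5075 and signal 22.3, 841 bp upstream, matched in replicate 5 alone at rank 1268. The window held a GATA motif centred 43.5 bp from the summit and a CGTCTC. A further summit 3900 bp upstream, at pooled rank 8552, had rank 1762 in replicate 1 and 27141 in replicate 4 and a TGATAA centred 10.5 bp away. The nearest optimal summit was that of puf-9, 13579 bp past the 3′ end of hbl-1.

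lin-41 encodes a TRIM-NHL RNA-binding protein and is a target of let-7. It lies at chrI:9334800-9342496 on the minus strand, and its leading summit, at rank 1098 and signal 39.2, stood 1387 bp upstream. Its rank was 19187 in replicate 1, 1602 in replicate 2 and 3637 in replicate 5, with no match in replicate 4, so none of its replicate peaks was among the 1047 strongest. The 101 bp window was 66.3% G and C and held no GATA core. The mean was 39.6% ± 8.18 (SD, n = 14525) over pooled summits, to which it belongs. Over optimal summits, to which it does not, the mean was 44.3% ± 8.26 (SD, n = 1047). The nearest optimal summit, at rank 585, lay only 697 bp outside the span.

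daf-12 encodes a nuclear hormone receptor that binds dafachronic acids and governs the choice between continued growth and dauer arrest as well as later epidermal fates. It lies at chrX:10635908-10666875 on the plus strand with 9 annotated 5′ ends, and its span of 35968 bp held 7 pooled summits, all inside the gene. The first, at rank 1100 and signal 39.1, lay in an intron 1006 bp downstream of an internal 5′ end. It had ranks 16169, 843 and 1523 in replicates 1, 4 and 5 and no match within 100 bp in replicate 2. The strongest replicate 2 peak of the span, at rank 1449, lay just past that limit. It was 9652 bp downstream of the first 5′ end, against 9538 bp for the pooled summit. The window held an AGATAG 43 to 48 bp to the left and a GAGAGA 4 to 9 bp to the right of the summit.

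The second daf-12 summit, at rank 1522 and signal 34.5, had an AGATAA 17 to 22 bp to the right. Its rank was 1017 in replicate 4 and 2828 in replicate 5, and replicates 1 and 2 had no match. Then came 3 intronic summits of nearly equal strength, at ranks 2105, 2120 and 2133. Thus replicate 4 alone placed summits of daf-12 among its strongest peaks at those leading positions, and replicate 1 had a strong peak elsewhere, at rank 584 and 1580 bp downstream of the first 5′ end.

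**Figure D3:**
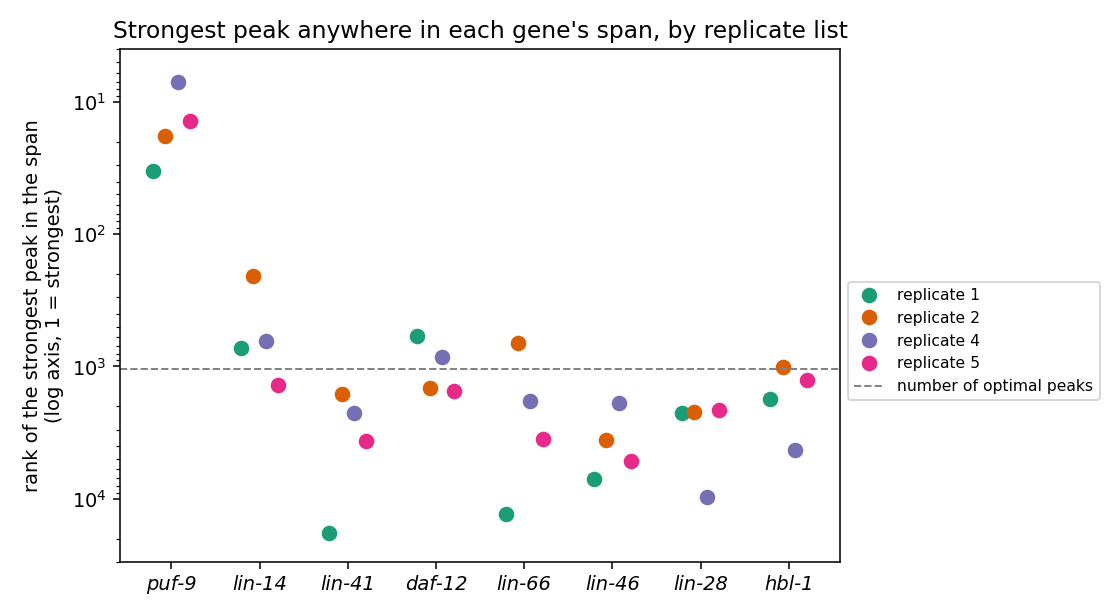
Rank by signal value (log axis, 1 at the top) of the strongest peak anywhere in each gene's span, per replicate list. The dashed line is rank 1047. All 4 points of puf-9 and 3 of 4 points of lin-14 lie above it, and those of lin-28, lin-41 and lin-46 all lie below it.

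Counted by replicate, 3 of the 8 genes had one of the 1047 strongest peaks of replicate 1 in the span, against 7.57% of all protein-coding genes. The count was 4 of 8 in replicate 2, against 7.71%, then 3 of 8 in replicate 4, against 7.30%, and 1 of 8 in replicate 5, against 7.63% (mean 2.75 ± 1.26 genes, SD, n = 4). puf-9 was among them in all 4 replicates, lin-14 in 3, daf-12 in replicates 1 and 4, and hbl-1 and lin-66 in replicate 2 alone. hbl-1 was near the limit there, with rank 1010. In pooled order the genes ran puf-9, lin-14, lin-41, daf-12, lin-66, lin-46, lin-28 and hbl-1. The strongest ranks in the span over the 4 replicates were 7 to 33 for puf-9, 207 to 1387 for lin-14, 1602 to 18050 for lin-41, 584 to 1523 for daf-12, 659 to 13141 for lin-66, 1893 to 7100 for lin-46, 2127 to 9643 for lin-28 and 1010 to 4267 for hbl-1. The range of puf-9 met that of no other gene, and lin-41 met neither of its neighbours in that order, lin-14 and daf-12, while the ranges of the later neighbours overlapped. These ranges are descriptions: the strongest peak of a gene can lie at different positions in different replicates, as it did for every gene but puf-9. For lin-41 it lay 7001 and 6917 bp downstream of the first 5′ end in replicates 1 and 4. In replicates 2 and 5 it lay 1399 and 1386 bp upstream. For daf-12 it lay close together in replicates 2, 4 and 5, at 9652, 9488 and 9497 bp downstream. In replicate 1 that of daf-12 lay 1580 bp downstream. Outside puf-9, no position was among the strongest peaks of 2 replicates: the 9 other such peaks lay at 9 places.

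The 32 pooled summits over the 8 spans comprised 14 upstream of the first 5′ end, 12 in introns, 4 in coding exons and 2 in untranslated regions. Of these, 2 were matched in all 4 replicates, 10 in 3, 10 in 2, 7 in 1 and 3 in none. Replicates 4 and 5 each matched 20 of the 32, against 14 for replicate 2 and 11 for replicate 1. The GATA motif was within 50 bp of 11 of the 32 summits, and of 25.5% of all 14525 pooled summits. For 26 of the 32, the nearest coding 5′ end belonged to the gene itself. The span rule favours this, since it takes only summits inside a gene or up to 5 kb upstream. No share over all pooled summits is set beside the counts of place, replicate match and nearest 5′ end, so nothing is read from them.

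Long spans catch more summits, and 7 of the 8 spans were longer than the median gene's. The median span was 10761 bp for the 8 genes and 7027 bp for all protein-coding genes. Per Mb of span, the 8 genes had 267 pooled summits, against 150.0 for all protein-coding genes. Their median strongest pooled rank was 1483, against 5598 over the genes with a summit. Both values come from the pooled summits that chose the genes, and lin-14 alone held 11 of the 32. Nothing is therefore read from them. By length of span, an optimal summit was found for 6.57% of genes under 8 kb, 9.49% at 8 to 12 kb, 9.79% at 12 to 20 kb and 13.9% over 20 kb. The 2 longest of the 8 spans, those of daf-12 and lin-14, also held the most pooled summits.

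**Figure D4:**
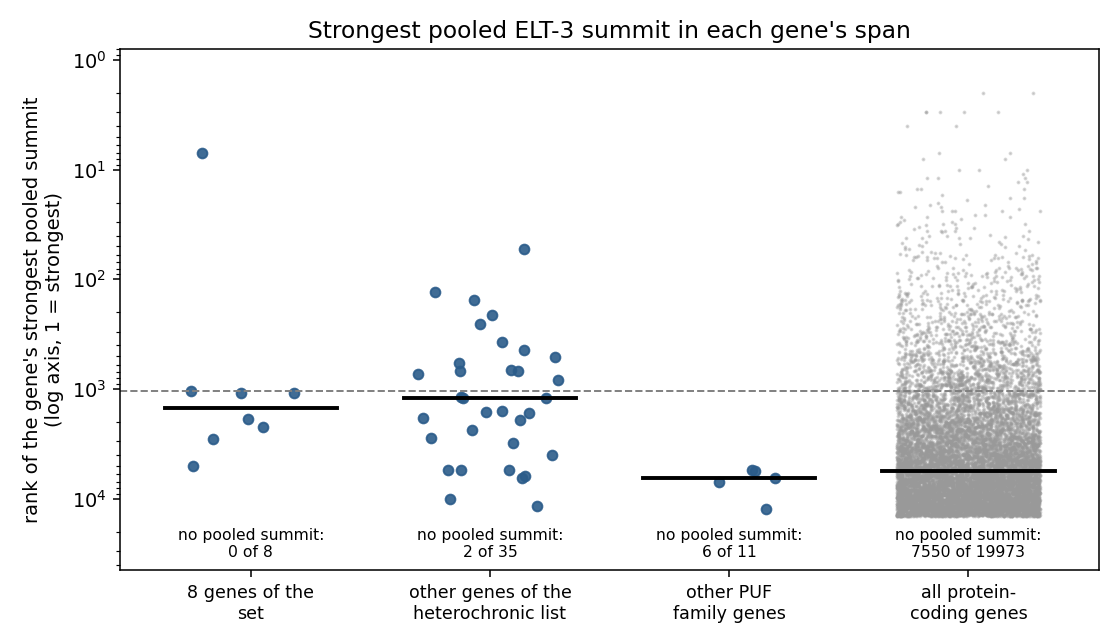
Rank (log axis, 1 at the top) of the strongest pooled summit in each gene's span for the 8 genes, the other genes of the heterochronic list, the other PUF family genes and all protein-coding genes. Each point is a gene, black bars are medians over genes with a summit (1483, 1199, 6486 and 5598), the dashed line is rank 1047, and the numbers below count genes with no pooled summit.

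Beyond the 8 genes, a list of 35 other genes that act in or with the pathway had 14 members with an optimal summit, or 40.0%. Over its 29 protein-coding members the share was 41.4%, against 7.62% of all protein-coding genes. Their median span, 10472 bp, was close to that of the 8 genes, and the list was drawn up with earlier results of these data known. The median strongest pooled rank over the 33 with a summit was 1199. For 9 of the 12 protein-coding genes among the 14, the strongest summit had the gene's own 5′ end as the nearest coding one. For nhl-2, xrn-2 and let-60 it was that of a neighbour. It could only be so for the RNA genes lep-5 and let-7, which have no coding 5′ end.

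lin-42, related to Period, had 4 optimal summits, the strongest at rank 213 in a coding exon 12510 bp downstream of the first 5′ end. kin-20, a casein kinase gene whose relatives act with Period, had 2, the strongest at rank 258. The nuclear receptor genes nhr-23 and nhr-25 had their strongest summits in introns at ranks 372 and 441. din-1, which encodes a corepressor partner of DAF-12, had rank 130, 2332 bp upstream. No match in replicate 2 was found for the strongest summits of lin-42, nhr-23 and din-1, nor in replicate 1 for that of kin-20. Ranks in replicates 1, 4 and 5 were 9856, 307 and 79 for lin-42 and 109, 505 and 9208 for nhr-23. They were 7420, 187 and 164 for din-1. Those of kin-20 in replicates 2, 4 and 5 were 801, 564 and 1190. blmp-1 and myrf-1, regulators of molting-cycle transcription, had ranks 583 and 686. The strongest summits of nhr-25, blmp-1 and myrf-1 were matched in all 4 replicates. In replicates 1, 2, 4 and 5 their ranks were 836, 617, 1605 and 2075 for nhr-25, then 9842, 55, 2795 and 2226 for blmp-1, and 2207, 3854, 19857 and 325 for myrf-1, whose summit lay 285 bp upstream. Listed regulators without an optimal summit included sea-2 and daf-16, at pooled ranks 1193 and 1654.

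Genes of the microRNA machinery were also among them. nhl-2, a TRIM-NHL cofactor of microRNA complexes, had the strongest summit of the list, at rank 53, 836 bp upstream, with ranks 47, 558, 271 and 69 in replicates 1, 2, 4 and 5. It was the only 1 of the 14 among the 1047 strongest peaks of every replicate, which held for 95 of all 1047 optimal summits. Of the 14, 5 strongest summits were matched in all 4 replicates, against 423 of the 1047. Nothing is read from such small counts. The nearest coding 5′ end to the nhl-2 summit was that of tag-340. ain-1 and ain-2, the GW182-related partners of Argonaute, had ranks 835 and 669, and the exonuclease gene xrn-2 had rank 154. The ain-1 summit had ranks 1695 and 133 in replicates 1 and 4 and no other match. That of ain-2 had ranks 968, 594 and 535 in replicates 1, 4 and 5 and no match in replicate 2. That of xrn-2 had ranks 270, 1696, 1291 and 86 in replicates 1, 2, 4 and 5. The Argonaute genes alg-1 and alg-2 had no optimal summit, at pooled ranks 1939 and 1631, and dcr-1 stood at 11781.

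Of the 5 microRNA genes of the pathway, let-7 alone had an optimal summit, at rank 726 and 1843 bp upstream, matched in replicate 4 at rank 147 and in replicate 5 at rank 3457 and nearest to the 5′ end of C05G5.2. mir-48 and mir-241 shared a summit at pooled rank 1199, mir-84 stood at 5467, and lin-4 had no pooled summit. The late genes lin-29 and mab-10, which drive the adult switch, stood at 2390 and 3102, and the adult collagen gene col-19 had none. Of the strongest summits of the 14 genes, 4 had a GATA motif within 50 bp, set beside 39.4% of all optimal summits and 22.5% of flank windows, and nothing is read from so small a count.

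Among the 11 other PUF genes, including 2 pseudogenes, 0 had an optimal summit, against 7.62% of all protein-coding genes, and for so short a list that count is near the background. A pooled summit was found for 5 of the 9 protein-coding ones, against 62.2% of all protein-coding genes, and for neither pseudogene. In all, 6 of the 11 had none. The strongest was that of puf-8, at pooled rank 5441 and signal 21.8 in a coding exon, with ranks 2039 and 6478 in replicates 2 and 4 and no match in the other two. The median over the 5 was 6486, against rank 7 for puf-9 and 5598 over all protein-coding genes with a summit.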

How the data were processed

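ELT-3 ChIP-seq peak lists of 6 libraries from 4 biological replicates were used. Per the file headers in the deposited listings, the authors called replicate lists as input for an irreproducible discovery rate (IDR) procedure and 1 list on pooled reads, and kept as optimal the peaks past the IDR threshold. All used a control of another experiment, not analysed here. The replicate 2 list was tied to it through the alignment named in its libraries' listings. The deposited signal value ranked peaks within a list and was compared across none (ties took the lowest rank), and the deposited −log10 q-value served as description. The authors' aligner, peak caller and depths were not given in the sources used here, and precision is shown by the replicates. Peaks deposited on ce10 were compared by rank and chromosome alone.

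Genes came from Ensembl release 115 on WBcel235 (ce11), with coordinates counted from 1. Symbols absent there (5 microRNA genes and 2 pseudogenes) were tied through RefSeq coordinates, and sequences were read from the RefSeq genome of that assembly. A replicate summit matched within 100 bp, and the strongest peaks were the first 1047 of each list. Counting used Python 3.11.15, pandas 2.3.3 and numpy 2.4.6 and was checked on simulated peaks.

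The members and lists were chosen with earlier results of these data known. The genes named were the 8, listed pathway and PUF genes, neighbours of summits and the 3 genes nearest to puf-9 in mean replicate rank. The genes were tested against no others, since the same lists chose them, and Dixon's criterion only picked out replicates for a closer look. Alternatives varied the span, threshold, matching distance, number of peaks, motif and window, and left out each replicate.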

Additional observations from a re-analysis of the deposited data

Results flagged for a closer look

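In 19 quantities with a value in each of the 4 replicates, such as the strongest rank in a span or the number of peaks there, the most distant replicate was compared with the others. In 3 of them it stood far apart by Dixon's criterion for 4 values. The criterion is set to be met in about 1 of 20 cases for independent, normally distributed values. Ranks and peak counts are not such values, so the 3 of 19 cannot be set against that rate. The strongest rank in the lin-28 span was 9643 in replicate 4, against 2261, 2208 and 2127 in replicates 1, 2 and 5. The strongest rank in the lin-41 span was 18050 in replicate 1, against 1602, 2232 and 3637 in replicates 2, 4 and 5. The lin-46 span held 2 peaks of replicate 1 and 4 peaks of each other replicate. There the other 3 replicates were equal, so any departure would have met the criterion. These values come from the lists that chose the genes and are given as descriptions, and no cause was tested.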

How the results depend on the processing

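Of 33 alternatives over these results, 23 left the value the same or close and 10 moved it. Some of these could not have come out otherwise, so the tally does not measure how firm the results are. The 2 genes with an optimal summit became 1, puf-9, with the stronger 523 peaks of the optimal list (which also left 1 optimal summit), and with a promoter from 1000 bp upstream to 200 bp downstream of a 5′ end. They became 1 as well when the summit had to be among the strongest peaks of the replicates, leaving out each in turn (1 to 1). That rule gave 1 with all 4 replicates too, so the change came with the rule and not with the replicate left out. The number of optimal summits with a GATA motif was 0 and became 1 within 100 bp, 1 within 75 bp (chosen after seeing the data) and 1 with the 4-base core. With 0 motifs within 50 bp, a window of 25 bp and TGATAA alone could only give 0. The median replicate rank of puf-9, 16, ran between 14 and 18 without each replicate. Ranks show order within a list and no amount of binding, the depth behind them is unknown, and a match within 100 bp can join separate sites. No paired analysis was possible because there is 1 group.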
